A study of Rattus norvegicus with 6 samples.

Results

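Glypicans and syndecans are the main families of heparan sulfate proteoglycans at the cell surface. A glypican is held in the outer membrane by a glycosylphosphatidylinositol anchor, and a syndecan crosses the membrane and has a short cytoplasmic tail. Both carry heparan sulfate, a sulfated sugar chain that binds growth factors, morphogens, chemokines and matrix proteins and presents them to their receptors. In the prostate such ligands pass between the stroma and the secretory epithelium. The members were 3 glypican genes, Gpc1, Gpc2 and Gpc3, and 4 syndecan genes, Sdc1, Sdc2, Sdc3 and Sdc4, taken as every probe set annotated to them: 12 of the 8799 probe sets on the array, and 7 of its 4736 named genes. Gpc2 was put at the centre because its values had already been seen to differ between the diets, so it was chosen by its intensity in these 6 arrays, and its difference is a description that was not tested. The others were listed by family, with results of these data known.

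Male rats of the inbred ACI strain ate a diet high in corn oil (3 rats) or low in corn oil (3 rats) for 18 months, and their age is given as 18 months. Total RNA of each animal's dorsolateral prostate was hybridized to its own Affymetrix array, so replicates were separate animals (arrays high-1 to high-3 and low-1 to low-3, numbered as in their titles), and a fall in whole tissue cannot tell fewer cells of a type from less RNA per cell. The free-text description of high-3 names the low diet, while its title and source name give the high one, which was used here. The question was whether the change in Gpc2 was shared by the rest of its family.

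The arrays had median intensities of 572.6 to 710.3 under the high and 591.4 to 632.0 under the low diet, on a linear scale, and each array had 18.6% to 23.1% of its intensities at or below 0. All 7 luminal markers on the array, among them the keratin gene Krt8 and the prostate secretory genes Pbsn and Msmb, were above 0 on every array. Array high-1 was less like high-2 and high-3 (Spearman correlation across tested probe sets 0.869 and 0.881) than like the low arrays (0.928 to 0.950). The differences of Gpc2, Gpc3 M22400_at, Hs6st1, Ndst1 and Nrp1 are also given without it, and those of the other list genes only with it.

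Gpc2 was higher under the high corn oil diet than under the low one, and the other members did not share a change of its size in that direction. Of the 12 member probe sets 9, for 6 genes, were bright enough to be tested, with a mean intensity of at least 343 over the 6 arrays. Among the 8 other than Gpc2, 3 were higher and 5 lower in rats on much corn oil, with a median log2 difference of -0.12, against 0.03 over all 5244 tested probe sets. None of the 8 passed limma's test (adjusted p from 0.475 to 0.915 over all tested probe sets), which called 0 probe sets, or 0.0%, in all, while 522, or 9.95%, had an unadjusted p under 0.05. Gpc3 supplied the 1 of the 8 at that unadjusted level, and it was lower, not higher. The groups did not overlap for 3 of the 9 tested member probe sets (Gpc2 and both probe sets of Sdc1), where 15.5% of all tested probe sets did not overlap (8.83% higher and 6.71% lower), and since Gpc2 was chosen for this nothing is read from that count.

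Gpc2 encodes cerebroglycan, a glypican known in rats from the developing nervous system. Its probe set, L20468_at, read 10579.5, 3104.3 and 7897.5 in high-1, high-2 and high-3, against 571.1, 1263.6 and 818.5 in low-1, low-2 and low-3. All 3 high corn oil arrays lay above all 3 low corn oil arrays, and the lowest high value was 2.46 times the highest low value. The high arrays differed 3.41-fold among themselves and the low arrays 2.21-fold. The means were 7194 ± 3787 and 884 ± 351 (SD, n = 3 each), a ratio of 8.13, and the difference on the log2(intensity + 156.1) scale was 2.71 ± 0.46 (SE). Only 4 of the 5244 tested probe sets differed more in either direction, and 1 of them was higher.

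The Gpc2 difference ranged from 2.35 to 3.21 when 1 array was left out, and was 2.35 without high-1. It was 3.40 among the 3 arrays with high signal for the bacterial spike-in controls (1 high and 2 low corn oil) and 2.39 among the 3 with low signal. With high-3 counted as a low array, as its description would have it, the difference was 1.81. Of 13 listed neuron markers 11 were on the array and 3 bright enough to test, 1 higher and 2 lower with a median of -0.40 in log2. Their summed intensity overlapped between the diets, at 3822.4 to 7753.4 under the high and 4642.9 to 7668.4 under the low diet. By array the sums were 3822.4, 7753.4 and 6472.2 in high-1 to high-3, against 7668.4, 4642.9 and 4785.5 in low-1 to low-3. None of the neuron markers was at or below 0 on every array, but 5 of the 11 were on some arrays. Nefl, the neurofilament light chain of axons, read 331.7, 470.2 and 449.4 in the high corn oil arrays, against 1003.5, 496.1 and 516.3 in the low ones. Every high array was below every low array, with 470.2 against 496.1 at the closest (log2 difference -0.49, limma adjusted p = 0.569). The other tested neuron markers overlapped between the diets, Uchl1 at -0.40 ± 0.35 and Snap25 at 0.18 ± 0.24 (SE, limma adjusted p = 0.653 and 0.754). The luminal markers summed to 297574, 158315 and 170138 in the high corn oil arrays, against 259559, 262943 and 271024 in the low ones. Those sums were highest in high-1 and lowest in high-2 and high-3, while Gpc2 was higher in all 3 than in any low array. Pbsn (99574.0) and Msmb (73853.6) were the largest values in the high-1 sum. The part of nerve or of the epithelium in the Gpc2 values was not tested.

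**Figure D1:**
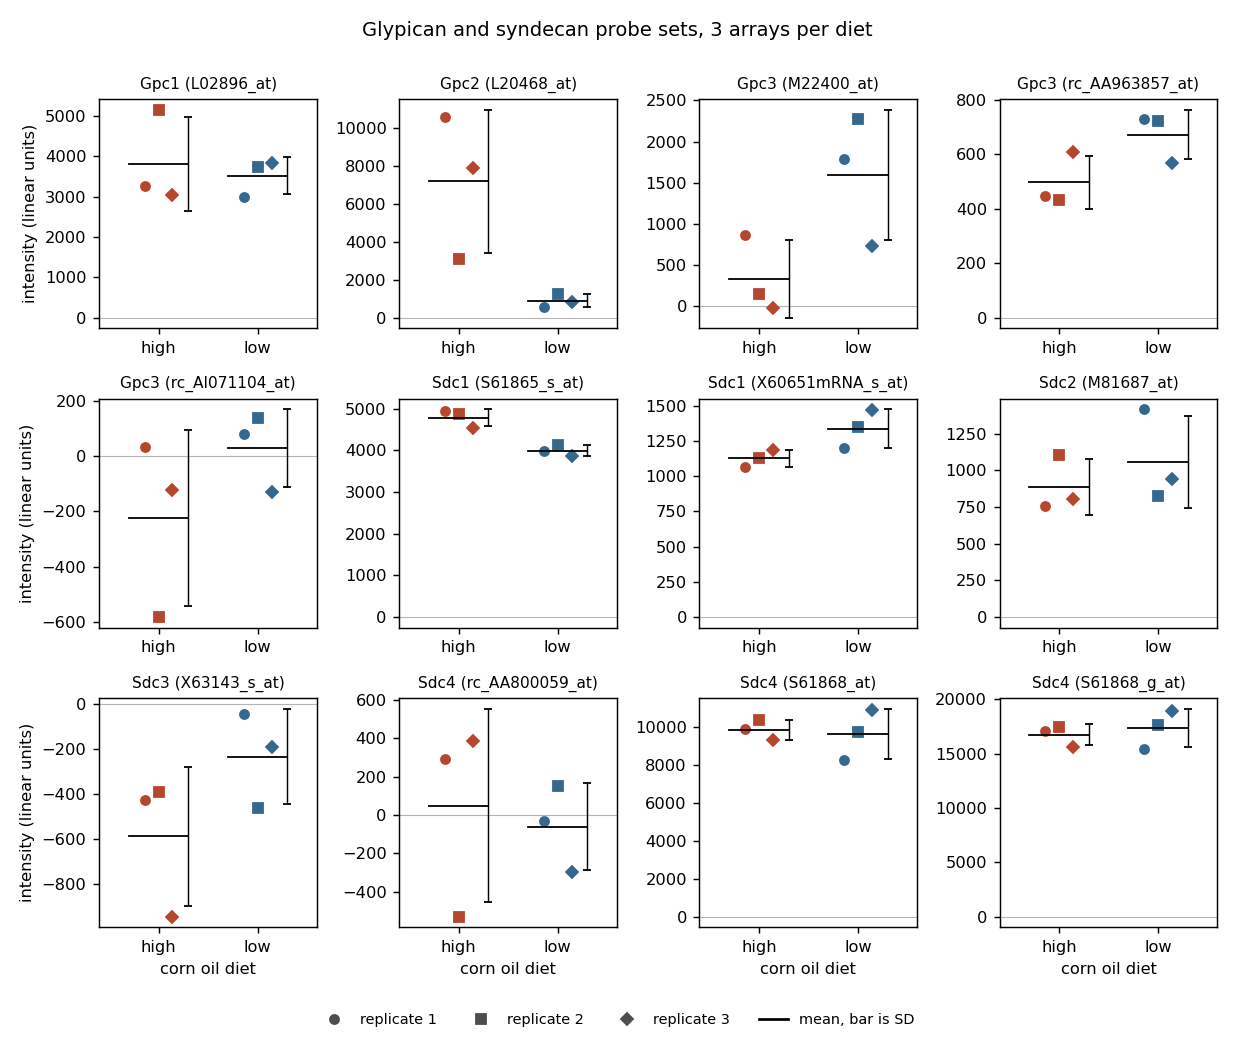
Intensity (linear units, vertical axes with their own ranges) of the 12 glypican and syndecan probe sets in the high and low corn oil arrays. Points are arrays, with a shape for each replicate number, horizontal lines are diet means and bars are the SD of 3 arrays. Gpc2 reads 3104.3 to 10579.5 under the high and 571.1 to 1263.6 under the low diet, while Gpc1, Sdc2 and the brighter Sdc4 probe sets overlap between the diets.

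Gpc1, a widely expressed glypican that binds fibroblast growth factors, did not follow Gpc2. It read 3258.7, 5161.4 and 3031.3 in the high corn oil arrays, against 2993.8, 3740.1 and 3843.3 in the low ones, so the groups overlapped, and high-2 alone stood above the rest. Its log2 difference was 0.08 ± 0.23 (SE, 95% interval -0.46 to 0.62, limma adjusted p = 0.898), and the sign turned without high-2 (-0.15), without low-1 (-0.03) and with array weights (-0.002).

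Gpc3, a glypican that restrains growth and whose human loss causes an overgrowth syndrome, leaned the opposite way to Gpc2. Its brightest probe set, M22400_at, read 862.3, 142.6 and -21.8 in the high corn oil arrays, against 1783.8, 2278.6 and 728.5 in the low ones. The groups overlapped only because high-1 was above low-3. The log2 difference was -2.15 ± 0.71 (SE, 95% interval -3.82 to -0.49, limma adjusted p = 0.475), and 9 of all tested probe sets were lower by more. As 1 high value was below 0, the size depends on the pseudocount: it was -3.00 with a pseudocount of 39.0 and -1.24 with one of 624.6. Without high-1 the difference was -2.90 and passed the test (limma adjusted p = 0.0430), in a setting that called 214 probe sets, or 4.08%. Both remaining high arrays then had low spike-in signal, and within spike-in levels the difference was -1.09 among arrays with high and -2.03 among arrays with low signal. With high-3 counted as low it was -0.70.

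The other probe sets of Gpc3 were dimmer. rc_AA963857_at read 448.3, 432.6 and 608.8 under the high and 729.6, 721.1 and 567.0 under the low diet, a log2 difference of -0.35 ± 0.26 (SE, limma adjusted p = 0.609). These groups overlapped too, here through high-3 and low-3. rc_AI071104_at was at or below 0 on 2 high and 1 low corn oil arrays and was not tested. Averaged over its 2 tested probe sets Gpc3 was at -1.25 (limma adjusted p = 0.468). Fibroblast markers leaned the same way: 7 of 8 had negative differences (median -0.61), and none was at or below 0 on all arrays. Their summed intensity was 64239 to 84378 in the high corn oil arrays, against 95615 to 130888 in the low ones, without overlap. Most other marker lists also had mostly negative differences. These were 8 of 9 for smooth muscle (median -0.28), 8 of 8 for skeletal muscle (-0.33) and 5 of 6 for macrophages (-0.36). They were also 2 of 3 for neurons (-0.40), 4 of 7 for luminal epithelium (-0.04) and 1 of 1 for Schwann and glial cells (-0.12). Basal epithelial markers were higher in 3 of 3 and endothelial markers in 1 of 2 (medians 0.27 and 0.10). The summed intensities of the smooth muscle, skeletal muscle and macrophage lists each overlapped between the diets. None of the markers in those lists was at or below 0 on all arrays, but 2 skeletal muscle markers were on some arrays. Smooth muscle markers summed to 145080 to 189015 under the high and 176296 to 220774 under the low diet. Macrophage markers summed to 35140 to 59055 under the high and 53302 to 58856 under the low diet. Much of that sum was Lyz2, at 21111.5 to 39833.2 under the high and 29368.7 to 35165.4 under the low diet. Skeletal muscle markers summed to 19062 to 42175 under the high and 29828 to 38600 under the low diet. Single markers were lower without overlap in 6 of 8 fibroblast, 3 of 6 macrophage, 2 of 9 smooth muscle and 1 of 8 skeletal muscle cases. The macrophage ones were Aif1, C1qb and C1qc. Over all tested probe sets the share was 6.71%. The part of any of these lists in the Gpc3 difference was not tested.

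**Figure D2:**
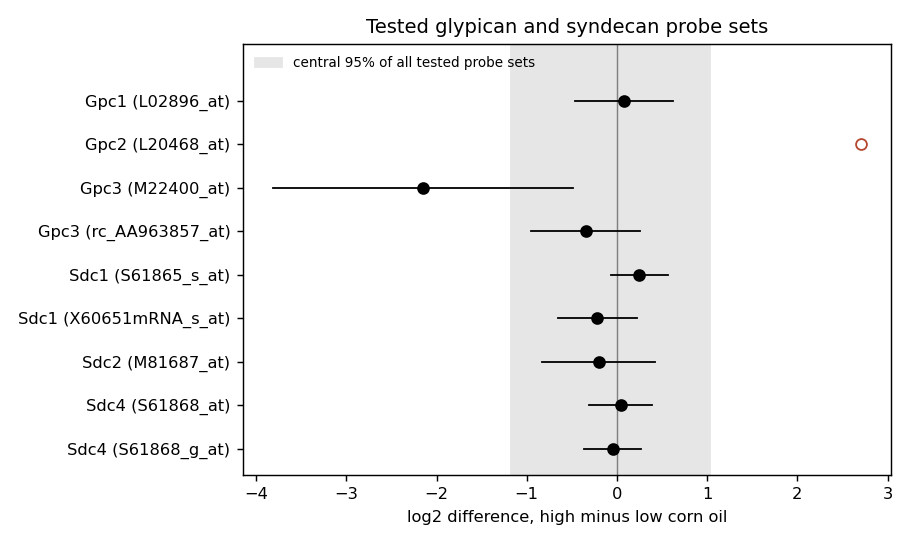
Log2 difference, high minus low corn oil, of the 9 tested glypican and syndecan probe sets. Points are limma estimates over 3 arrays per diet and lines their 95% intervals, and Gpc2 (open circle) is drawn without an interval since it was chosen for its difference. The grey band holds the central 95% of all 5244 tested probe sets, from -1.18 to 1.04. Gpc2 at 2.71 and Gpc3 M22400_at at -2.15 lie outside it on opposite sides.

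Sdc1, the main syndecan of epithelia, gave opposite answers from its 2 probe sets. S61865_s_at read 4931.9, 4861.6 and 4544.5 in the high corn oil arrays, against 3979.1, 4133.9 and 3876.7 in the low ones. Every high array was above every low array, by 0.25 ± 0.13 (SE) in log2 (limma adjusted p = 0.524), or 4779 ± 206 against 3997 ± 129 (SD, n = 3 each). X60651mRNA_s_at read 1064.3, 1129.3 and 1183.6 in the high corn oil arrays, against 1196.7, 1346.2 and 1469.5 in the low ones. Here every high array was below every low array, at -0.22 ± 0.19 (SE, limma adjusted p = 0.649). Both directions held with each array left out, from 0.23 to 0.28 for the first probe set and from -0.29 to -0.15 for the second, and in both groups of spike-in level. Averaged over the 2 probe sets Sdc1 was at 0.02 (limma adjusted p = 0.971), so the array gives no single direction for it. In the manufacturer's naming the ending of both probe sets marks probes that may match more than 1 transcript, and which stretch of the transcript each one reads was not used here. Of 7 listed basal epithelial markers 4 were on the array and 3 tested, and these 3 were higher. The list summed to 17075 to 18958 under the high and 14030 to 15038 under the low diet, with Tp63 at or below 0 on all arrays. Of 7 tested luminal epithelial markers 3 were higher and 4 lower, with a median of -0.04 in log2. The part of either list in the Sdc1 values was not tested.

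Sdc2, a syndecan of mesenchymal and endothelial cells, read 755.2, 1108.6 and 805.5 in the high corn oil arrays, against 1417.0, 823.8 and 938.3 in the low ones. The groups overlapped, with low-1 above the rest. The log2 difference was -0.20 ± 0.27 (SE, 95% interval -0.83 to 0.42, limma adjusted p = 0.762), and without low-1 it was -0.001.

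Sdc4, a broadly expressed syndecan of focal adhesions, had the smallest differences of the family. S61868_at read 9893.8, 10371.1 and 9320.5 in the high corn oil arrays, against 8236.8, 9745.3 and 10886.0 in the low ones. S61868_g_at, built from the same transcript record, read 17129.9, 17466.3 and 15632.1 against 15446.3, 17672.6 and 18936.6. In both, the high corn oil values lay within the range of the low ones. The log2 differences were 0.04 ± 0.15 and -0.05 ± 0.14 (SE), with 95% intervals of -0.31 to 0.39 and -0.37 to 0.27 (limma adjusted p = 0.915 and 0.896). A further Sdc4 probe set, rc_AA800059_at, was at or below 0 on 1 high and 2 low corn oil arrays and was not tested.

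Sdc3, a syndecan best known from nerve and muscle, was below 0 on all 6 arrays, from -943.0 to -391.1 under the high and from -463.4 to -46.8 under the low diet, so no fold is given. The upper ends of the 95% intervals of Gpc1, Gpc3, Sdc1, Sdc2 and Sdc4 reached at most 0.62, less than the Gpc2 difference of 2.71. The contrast between Gpc2 and each of them was itself not tested, since Gpc2 had been chosen for its size.

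Gpc2 lies on rat chromosome 12 with Gal3st4 and then Trappc14 on one side and Stag3 on the other. Trappc14, whose product belongs to the TRAPP complex of vesicle transport, was also among the 8.83% of tested probe sets that were higher without overlap. It read 5031.7, 5420.8 and 5320.9 in the high corn oil arrays, against 2404.4, 2144.9 and 2485.1 in the low ones. The 2 neighbours therefore were both higher on every high corn oil array than on any low one, but Trappc14 varied little within a diet while Gpc2 varied 3.41-fold within the high one. The Trappc14 difference was 1.12 ± 0.14 (SE) in log2 and did not pass limma's test (adjusted p = 0.462). Both genes were known for their differences before they were set side by side. Nxpe5l3, 2 places beyond Trappc14, read 952.4, 1150.2 and 878.2 under the high and 882.9, 668.8 and 1026.9 under the low diet, with overlapping groups (0.19 ± 0.24, limma adjusted p = 0.750). No probe set was named here for Gal3st4, Lamtor4 or Stag3.

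**Figure D3:**
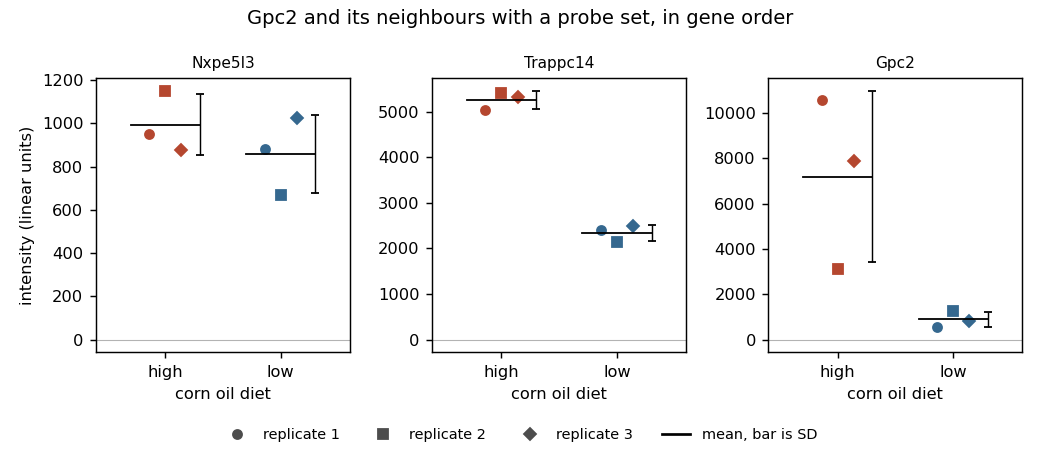
Intensity (linear units) of Gpc2 and of the genes within 5 places of it that have a probe set, in chromosomal order, in high and low corn oil arrays. Points are arrays, lines means and bars the SD of 3 arrays. Trappc14 and Gpc2 separate the diets, at 5031.7 to 5420.8 against 2144.9 to 2485.1 and 3104.3 to 10579.5 against 571.1 to 1263.6, and Nxpe5l3 does not.

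The starts of Gpc2 and Trappc14 are printed because these neighbours on one strand were both higher. Each stretch covers 250 bases before to 50 after the annotated start, from RefSeq on build GRCr8, 5′ to 3′ on the gene's strand, and capitals mark the GC box letters GGGCGG or the CCAAT box letters CCAAT on either strand.
Gpc2, chr12:22397773-22398072, minus strand: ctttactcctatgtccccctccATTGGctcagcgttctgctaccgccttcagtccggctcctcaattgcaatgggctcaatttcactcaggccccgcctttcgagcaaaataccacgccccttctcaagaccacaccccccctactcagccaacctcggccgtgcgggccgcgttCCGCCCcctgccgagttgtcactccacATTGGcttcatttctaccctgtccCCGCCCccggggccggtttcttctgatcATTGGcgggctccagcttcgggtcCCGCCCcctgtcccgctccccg
Trappc14, chr12:22380602-22380901, minus strand: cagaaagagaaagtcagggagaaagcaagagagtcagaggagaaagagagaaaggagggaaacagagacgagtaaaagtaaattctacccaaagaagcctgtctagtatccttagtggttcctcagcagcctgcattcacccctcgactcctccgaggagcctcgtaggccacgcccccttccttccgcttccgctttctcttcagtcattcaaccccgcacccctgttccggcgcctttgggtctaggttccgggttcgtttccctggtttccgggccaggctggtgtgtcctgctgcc
The Gpc2 stretch held 3 GC boxes and 3 CCAAT boxes and the Trappc14 stretch held 0 of either, and no GC box overlapped a CCAAT box. Neither held the TATA box letters TATAAA on either strand. Of 33469 rat stretches of the same length, 33.1% held a GC box, 37.5% a CCAAT box and 14.2% the TATA letters, and 8.97% and 3.02% held at least 3 GC or CCAAT boxes. GC boxes were also in the stretches of Gpc3 (4), Sdc1 (3), Sdc3 (4) and Sdc4 (5), and a CCAAT box in that of Sdc1 (1). These counts describe letters only.

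The genes next to the other members that had a tested probe set overlapped between the diets. They were Rhob (-0.06 ± 0.13, SE, in log2) and Wdr35 (0.22 ± 0.31) near Sdc1, Cpq (-0.26 ± 0.38) next to Sdc2 and Sys1 (0.11 ± 0.16) next to Sdc4, with limma adjusted p from 0.777 to 0.851.

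The genes whose log2 values followed Gpc2 most closely over the 6 arrays were Ufsp2, a protease of the ufmylation system (Pearson r = 0.98), Sec61b, a subunit of the protein channel of the endoplasmic reticulum (0.98), Aldh2, the mitochondrial aldehyde dehydrogenase (0.98), P2rx4, an ATP-gated channel (0.97), and Plpp1, a lipid phosphate phosphatase (0.96). These r values are descriptions: the 6 points are the same arrays, they fall into 2 diets, and each of these genes was higher on all 3 high corn oil arrays. So were 8.83% of all tested probe sets, and a ranking by likeness to Gpc2 favours them. The log2 differences were far smaller than the 2.71 of Gpc2. They were 0.31 for Ufsp2, 0.17 for Sec61b, 0.35 for Aldh2, 0.40 for P2rx4 and 0.78 for Plpp1. Plpp1 read 34777.4, 19706.4 and 24826.6 in the high corn oil arrays, against 12251.8, 16928.1 and 15850.2 in the low ones. That is the order of the arrays in Gpc2, within each diet as well. Of 4312 other named probe sets, Trappc14 ranked 56th (r = 0.88) and the brighter Sdc1 probe set 59th (0.88). Gpc1 (-0.09), both tested Gpc3 probe sets (-0.61 and -0.62), Sdc2 (-0.66) and the dimmer Sdc1 probe set (-0.70) had negative r. The Sdc4 probe sets had r of 0.17 (S61868_at) and -0.20 (S61868_g_at).

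Each list of genes that build, bind or cut heparan sulfate had genes on both sides of 0. None passed limma's test, which called 0 of the 3162 genes tested (0.0%), so this tells nothing particular about the lists. With 1 probe set per gene, 9.58% of the 3162 tested genes had an unadjusted p under 0.05 and the median log2 difference was 0.05. Of 34 listed genes of chain synthesis and modification, 8 were on the array and 5 tested, 2 higher and 3 lower, with a median of -0.02 and 0 at that unadjusted level. Hs6st1, which adds sulfate to the 6 position of glucosamine, read 7741.4, 1321.4 and 2129.4 under the high and 6244.2, 5961.8 and 5356.6 under the low diet. Array high-1 was above every low array and the other 2 were below, so the difference of -1.01 ± 0.55 (SE, limma adjusted p = 0.527) was -1.71 without that array. Papss2, which makes the sulfate donor, was at 0.29 ± 0.24, and Ndst1, the sulfotransferase that starts chain modification, at 0.75 ± 0.76. Ndst1 read 32.9 in high-1, against 824.5 and 794.0 in high-2 and high-3, and its difference was 1.53 without high-1.

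Among other proteoglycans and part-time carriers, 2 of 5 were higher and 3 lower (median -0.52, 1 at that unadjusted level). Cd44, the hyaluronan receptor that carries heparan sulfate in some isoforms, read 483.5, 453.1 and 515.3 in the high corn oil arrays, against 911.9, 997.9 and 1007.9 in the low ones. The groups did not overlap, at -0.82 ± 0.22 (SE, limma adjusted p = 0.462). Agrn, the basement membrane proteoglycan agrin, was at 0.27 ± 0.14 with the high arrays above the low ones, and Nrp1, the semaphorin and growth factor receptor neuropilin, at -0.52 ± 0.29. Without high-1 the Nrp1 difference was -0.85.

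Of 9 heparin-binding ligands tested, 6 were higher (median 0.46, 0 at that unadjusted level), led by Igf2 (0.54 ± 0.24, SE), the stromal factor Fgf7 (0.66 ± 0.32) and Fgf9 (0.63 ± 0.32), none with a limma adjusted p under 0.501. Fgf7 read 700.9, 1055.9 and 1057.6 under the high and 320.2, 700.1 and 634.5 under the low diet, so that its groups touched without overlapping. Of 11 receptors 4 were higher and 7 lower (median -0.05, 2 at that unadjusted level, both lower). Ranked first were Pdgfra, the receptor for platelet-derived growth factor on fibroblasts (-0.97 ± 0.28), Met, the receptor for hepatocyte growth factor (-0.69 ± 0.24), and Ptprf, a receptor phosphatase (0.36 ± 0.17). Without overlap 4 of the 11 were lower (Pdgfra, Met, Fzd1 and Fzd2) and 1 higher (Ptprf). Over all tested probe sets the shares were 6.71% lower and 8.83% higher. Of 18 shedding enzymes, inhibitors and syndecan partners, 8 were higher and 10 lower (median -0.03, 1 at that unadjusted level). The first by rank were the integrin gene Itgav (1.28 ± 0.51), the membrane protease gene Mmp14 (-1.32 ± 0.59) and Msn (-0.92 ± 0.42), which links membrane proteins to actin. Sdcbp, the syntenin that binds syndecan tails, was at 0.05 ± 0.17 and the scaffold gene Cask at -0.003 ± 0.15.

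**Figure D4:**
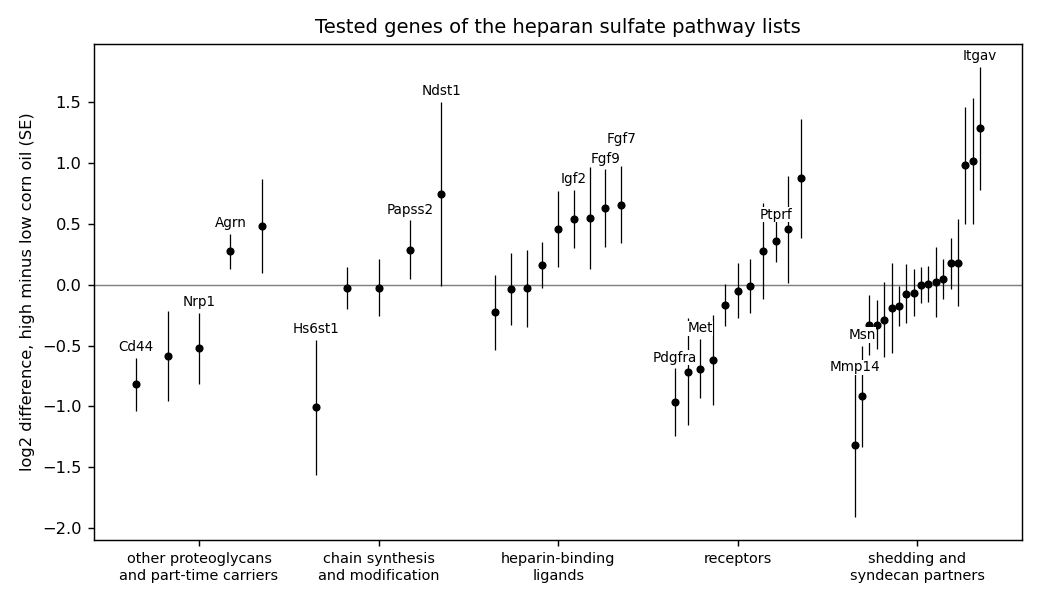
Log2 difference, high minus low corn oil, of every tested gene in 5 lists of genes that carry, build, bind or cut heparan sulfate, 1 probe set per gene, with the SE as bars (3 arrays per diet). The 3 genes with the smallest p in each list are named. Each list has genes on both sides of 0, and the medians run from -0.52 to 0.46.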

How the data were processed

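The deposited table holds linear intensity values. The submitters' processing notes name MAS5, with no version, algorithm or settings in the sources used here. Though MAS5 is the only tool named, 18.6% to 23.1% of each array's values were at or below 0. Which calculation gave these values is therefore not known. Without the top and bottom 2% of values, each array's mean was 2500.0, so the authors had scaled the arrays before deposit. Genes were named from the platform annotation and updated through gene identifiers (6985 of 7006 probe sets with 1 gene) to the GRCr8 annotation, used for names and gene order. No gene was named from the 308 probe sets with several.

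Values below 0 were set to 0 and transformed as log2(value + 156.1), the pseudocount being the median of all values (624.6) divided by 4, which understates the change of dim genes. Control probe sets were left out, and probe sets with a mean over 6 arrays at or above the 40th percentile (343) were tested with limma 3.58.1 in R 4.3.3 (trend, no covariate), with Benjamini-Hochberg adjustment over 5244. The step was tested on simulated data with independent normal noise, which held no deviation of a whole array such as that of high-1. The number of arrays limits the precision. For a gene with several probe sets the one with the highest mean was used in lists. Named genes were all members, the 3 genes of each list with the smallest p, the 5 most correlated with Gpc2, and genes within 5 places of a member. Sdcbp and Cask, and Plpp1's array order, were singled out after their values were seen. The members and lists were chosen with earlier results of these data known. Alternatives changed the pseudocount, filter, normalization, transformation, error model, blocks, diet of high corn oil replicate 3 and arrays used.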

Additional observations from a re-analysis of the deposited data

How the results depend on the processing

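Over 19 settings fixed beside the reported one and an average over probe sets, 160 of 171 member values were counted as unchanged. For members other than Gpc2 this meant the same direction and side of limma's threshold. Part of this count was fixed beforehand. Changes of filter, intensity trend or replicate block leave the log2 difference itself as it was, so they could turn no sign. Where limma called 0 probe sets over the whole array, no member could be past the threshold. For Gpc2, with 18 of the 160, it meant a shift smaller than its replicate spread. Each average was compared with the gene's brightest tested probe set, which for Sdc1 was the higher-leaning S61865_s_at. The count of probe sets called over the whole array was 0 as reported (522 at an unadjusted p under 0.05), 9 with no filter, 218 with quantile normalization and high-1 left out, and 0 to 214 when 1 array was left out, the 214 without high-1. Members other than Gpc2 past the threshold numbered 0 as reported, 1 with that quantile setting (Gpc3 M22400_at, -2.93) and 0 to 1 with 1 array left out. Gpc2 moved by more than its replicate spread in 1 setting, to 1.81 with array high-3 taken as low. Signs turned for differences near 0. Gpc1 was at -0.0017 with array weights and ran from -0.15 to 0.22 with 1 array left out, below 0 without high-2 or low-1. Sdc4 S61868_at was at -0.0020 with spike-in level as a block and ran from -0.063 to 0.13, below 0 without low-1. Sdc4 S61868_g_at was at 0.037 with array high-3 taken as low and ran from -0.13 to 0.017, above 0 without high-3 (0.00051) or low-3. The cause was not tested. With the replicate number as a block limma called 0 probe sets (554 at an unadjusted p under 0.05). Arrays of the same number did not deviate together (r = -0.05, -0.20 and 0.18), and high-1 correlated best with low-2 (0.27). Members at or near 0 (Sdc3, and 1 probe set each of Gpc3 and Sdc4) have too little signal to be compared.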
